A study of Mus musculus with 6 samples.

Results

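The mitochondrial ribosomal protein genes, whose mouse symbols start with Mrpl (large subunit) or Mrps (small subunit) and then a digit, were followed in sorted cells of mouse skin wounds and of unwounded skin. Their rows were picked from the authors' normalized table through its Entrez gene ids, with pseudogenes left out, which gave 77 genes of 19267 rows, 18040 of them with a symbol in the gene name table. That name table holds 78 such symbols, and Mrps9 was not analysed here. All 77 genes were well above background on all 6 arrays and were tested.

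The cells came from transgenic mice that carry green fluorescent protein under the smooth muscle actin (Acta2) promoter, and in both groups the sort took cells lacking CD45, a white blood cell marker, and CD31, an endothelial marker. The wound SMA+++ group (3 arrays, labelled myofibroblast) held cells with high reporter signal from wounds 7 days after injury. The skin SMA+ group (3 arrays, labelled fibroblast-like cells) held cells with low reporter signal from dermis. All animals carried the reporter, no other allele or treatment is given in the labels, and the reporter level and the injury cannot be told apart. About 50 ng of RNA per sample was amplified and hybridised to one-colour Agilent arrays, replicates 1 and 2 of each group on array design 026655 and replicate 3 of each on design 028005. Whether the replicates were separate animals is not given in the labels, so the p-values cover only the spread among these 6 samples, and that spread may be technical.

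Mitochondria carry their own ribosomes, which make the few proteins encoded by mitochondrial DNA, all of them core subunits of the oxidative phosphorylation complexes. The ribosomal RNA of these ribosomes is mitochondrial, whereas every ribosomal protein is encoded in the nucleus, translated in the cytosol and imported. Some of the proteins descend from bacterial ribosomal proteins and others are found only in mitochondria, and several bear pathogenic variants in human disorders of oxidative phosphorylation.

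Promoters of such genes are known to be rich in short binding motifs of nuclear respiratory factor 1 (NRF1), of ETS factors such as GABP, and of YY1. RefSeq promoter sequences (build GRCm38.p6, 250 bases before to 50 bases from the gene start) were at hand for 68 of the 77 members, Mrpl13, Mrpl15, Mrpl19, Mrpl38, Mrpl4, Mrpl54, Mrps28, Mrps34 and Mrps35 having none. The windows below show the members past the test threshold that have one, followed by Mrps18b, which holds an NRF1 and an ETS match close together, and Mrps12, whose protein lies at the decoding centre. Each runs 5′ to 3′ on the strand of the gene, from 150 bases before the start through the first 50 bases of the gene, and capitals mark a match to an NRF1, ETS or YY1 motif on either strand.
Mrpl34, chr8:71464776-71464975, plus strand: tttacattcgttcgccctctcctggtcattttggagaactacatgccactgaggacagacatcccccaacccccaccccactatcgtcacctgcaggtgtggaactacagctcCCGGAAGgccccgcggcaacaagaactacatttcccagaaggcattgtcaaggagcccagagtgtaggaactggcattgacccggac
Mrpl46, chr7:78783040-78783239, minus strand: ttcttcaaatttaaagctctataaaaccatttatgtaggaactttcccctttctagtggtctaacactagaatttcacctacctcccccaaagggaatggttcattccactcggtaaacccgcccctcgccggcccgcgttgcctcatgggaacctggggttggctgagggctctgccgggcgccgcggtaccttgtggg
Mrpl49, chr19:6057706-6057905, minus strand: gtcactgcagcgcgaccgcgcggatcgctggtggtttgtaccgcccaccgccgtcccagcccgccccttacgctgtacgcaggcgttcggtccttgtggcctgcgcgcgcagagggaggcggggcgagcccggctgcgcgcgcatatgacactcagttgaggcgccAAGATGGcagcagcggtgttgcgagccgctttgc
Mrpl35, chr6:71823735-71823934, minus strand: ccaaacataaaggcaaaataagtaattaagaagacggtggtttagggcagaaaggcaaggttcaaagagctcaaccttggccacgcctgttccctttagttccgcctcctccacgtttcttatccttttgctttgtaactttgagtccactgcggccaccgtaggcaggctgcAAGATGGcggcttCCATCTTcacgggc
Mrps31, chr8:22411190-22411389, plus strand: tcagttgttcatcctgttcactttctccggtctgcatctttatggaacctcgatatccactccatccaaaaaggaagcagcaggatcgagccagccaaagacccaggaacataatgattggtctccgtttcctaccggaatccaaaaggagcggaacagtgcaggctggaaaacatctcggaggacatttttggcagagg
Mrps18b, chr17:35916391-35916590, minus strand: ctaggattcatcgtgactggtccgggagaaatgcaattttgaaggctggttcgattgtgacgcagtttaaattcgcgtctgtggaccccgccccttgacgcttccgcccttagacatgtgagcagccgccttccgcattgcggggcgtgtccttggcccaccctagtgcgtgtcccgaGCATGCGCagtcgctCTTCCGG
Mrps12, chr7:28741772-28741971, minus strand: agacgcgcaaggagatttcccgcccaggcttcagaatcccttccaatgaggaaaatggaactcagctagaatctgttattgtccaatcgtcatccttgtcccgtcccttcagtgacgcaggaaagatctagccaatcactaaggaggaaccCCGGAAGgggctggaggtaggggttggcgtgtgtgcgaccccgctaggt

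A gene was counted once if any of its windows held the letters. The ETS letters CCGGAAG, or CTTCCGG on the other strand, were present for 26 of the 68 members (38.2%). Of all 17492 protein-coding genes with a window, 12.95% had them. YY1 letters (AAGATGG or CCATCTT) were present for 13 members (19.1%), against 7.18% of all genes. NRF1 letters (GCATGCGC or GCGCATGC) were present for 8 (11.8%), against 3.94% of all genes. At least 1 of these motifs was found for 38 members (55.9%), against 21.8% of all genes. The ETS and YY1 letters share AAG and can overlap. The E-box CACGTG, the motif of MYC and related factors, occurred for 5 members (7.35%), against 8.91% of all genes. TATAAA or TTTATA occurred for 5 members (7.35%), against 14.8% of all genes. A match is only a run of letters and shows no binding. Of the windows printed, that of Mrpl34 had its ETS match 37 bases before the start, Mrpl35 had a YY1 match on each strand inside its first 50 bases, and those of Mrpl46 and Mrps31 had no NRF1, ETS or YY1 match. The median log2 difference between wound and skin cells was 0.30 for members with an ETS match and 0.24 for members without, it was 0.22 with and 0.26 without a YY1 match, and it was 0.37 with and 0.24 without an NRF1 match.

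**Figure D1:**
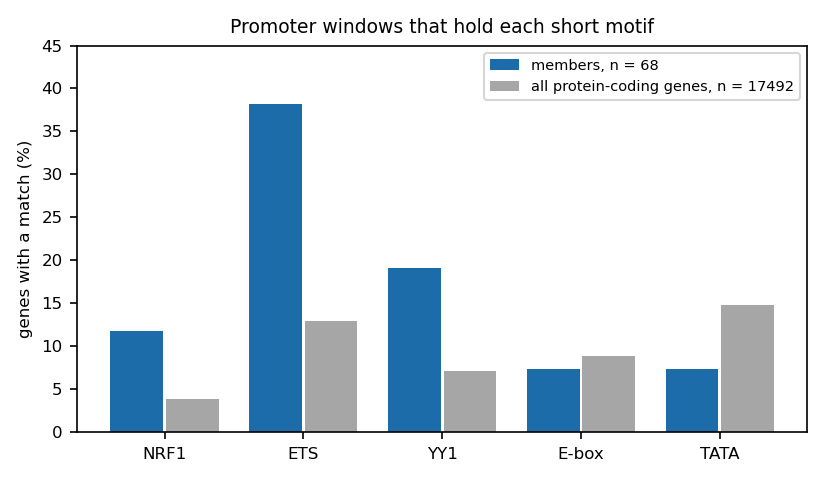
Share of genes (percent, y axis) with a promoter window that holds each short motif (x axis), for the members (blue) and all protein-coding genes (grey). ETS matches were found for 38.2% of members and 12.95% of all genes, and the E-box share of members, 7.35%, was under that of all genes, 8.91%.

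Few mitochondrial ribosomal protein genes differed between wound and skin cells past the threshold, and none by 2-fold. Values are log2 signals relative to the 75th percentile of their array, differences are wound minus skin within array design, and a call is an adjusted p under 0.05 in limma with Benjamini-Hochberg adjustment over 16684 genes. Of the 77 members, 3 were higher in wound cells and 3 lower (7.79%), and 71 did not pass. Over all genes tested 34.1% were called, 18.5% higher and 15.6% lower. The balance of directions moved with the scaling: 3091 genes were higher and 2596 lower as reported, 2595 higher and 2979 lower when the scaling percentile came from detected probes only (members 1 and 3), and 2493 higher and 2711 lower in the authors' table (members 1 and 2). A difference of 2-fold or more in size was found in 0 members and in 21.5% of all genes. The median standard error was 0.18 for members and 0.19 for all genes.

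The differences of the members lay mostly on the positive side of 0. They were above 0 in 62 and below 0 in 15 of the 77, with a median of 0.24 (quartiles 0.13 and 0.37), whereas all genes had a median of 0.04 (quartiles -0.38 and 0.46). Their standard deviation across genes was 0.30, against 1.18 across all genes. The 95% interval of the difference lay within 2-fold in both directions for 68 members (88.3%) and for 55.9% of all genes. Wound arrays lay above skin arrays, without overlap within designs, on both designs in 35 of the 77 members. They lay below on both in 4 (50.65% in all). Over all 16684 genes tested, 5329 lay above and 4233 below in the same way (57.3% in all).

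The size of this shift differed between arrays. The labels number the arrays of design 026655 but not those of design 028005, which are called replicate 3 here. Taking the arrays with the same number as a pair, the members' median difference was 0.41 in pair 1, 0.17 in pair 2 and 0.14 in pair 3, whereas the median over all genes was 0.04, 0.08 and 0.02. The difference was above 0 in all 3 pairs for 43 members, below 0 in all 3 for 7 and of mixed sign for 27. Over all 16684 genes tested the same counts were 5920, 4894 and 5870, so mixed signs were about as frequent among members as among all genes. Without wound replicate 1 the members' median was 0.12 and 1 member was called; without wound replicate 2 it was 0.33 and 4 were called. Leaving out any of the other 4 arrays left 0 members called, with 6 to 13 at an unadjusted p under 0.05, against 15 with all arrays. Leaving out replicate 3 of either group gives the same fit as design 026655 alone, so these are not separate checks. Across the 77 members, Pearson's r was 0.80 between pairs 1 and 2, 0.75 between pairs 1 and 3, and 0.63 between pairs 2 and 3, with Spearman's rho of 0.72, 0.70 and 0.45. These pairs share no array, genes are not independent replicates, and over all genes the same r was 0.89, 0.86 and 0.78.

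**Figure D2:**
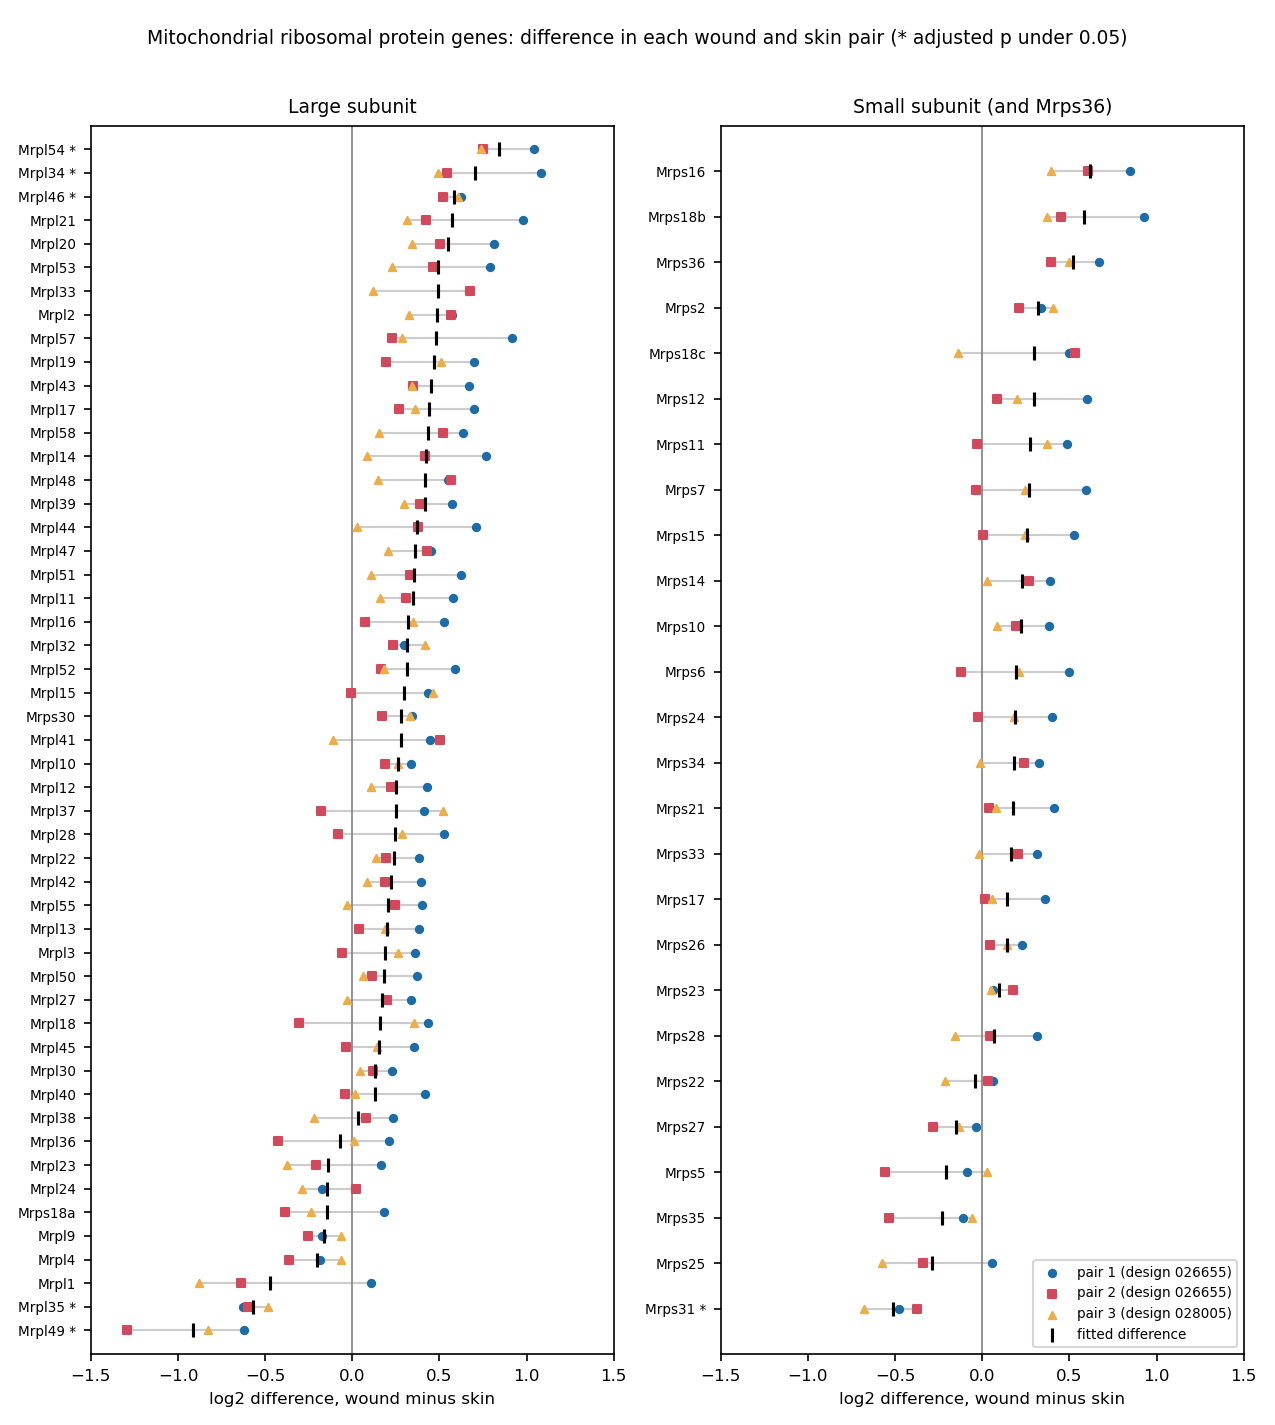
Log2 difference, wound minus skin (x axis), of each member (rows, ordered by the fitted difference) in pair 1 (circles), pair 2 (squares) and pair 3 (triangles), with the fitted difference as a black tick and asterisks at adjusted p under 0.05. Most members lie right of 0, pair 1 is often the rightmost point, and the fitted values run from -0.91 (Mrpl49) to 0.84 (Mrpl54).

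Among the members higher in wound cells, Mrpl54, a mitochondria-specific large subunit protein, had 2.78, 2.15 and 3.69 on wound arrays 1, 2 and 3, against 1.73, 1.4 and 2.95 on skin arrays 1, 2 and 3. Every wound array lay above the skin arrays of its own design. The log2 difference was 0.84 (SE 0.21, 95% interval 0.32 to 1.36, 1.80-fold, adjusted p = 0.026).

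Mrpl34, the homologue of bacterial protein L34 of the large subunit, had 1.26, 0.60 and 1.98 on wound arrays, against 0.18, 0.06 and 1.49 on skin arrays. The groups did not overlap on either design, and array 1 of the wound group stood highest on design 026655. The log2 difference was 0.70 (SE 0.22, 95% interval 0.18 to 1.23, 1.63-fold, adjusted p = 0.048). Mrpl34 was not past the threshold when the scaling percentile came from detected probes only, after quantile normalization or in the authors' deposited table, where its differences were 0.61, 0.66 and 0.65.

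Mrpl46, a mitochondria-specific protein of the central protuberance, the lobe of the large subunit that faces the small one, had -0.19, -0.52 and 0.46 on wound arrays, against -0.82, -1.04 and -0.15 on skin arrays. Its pairs were close to each other, and the groups did not overlap on either design. The log2 difference was 0.58 (SE 0.16, 95% interval 0.19 to 0.98, 1.5-fold, adjusted p = 0.037). Mrpl46 did not pass with the percentile from detected probes only (0.49) or in the authors' deposited table (0.52).

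Among the members lower in wound cells, Mrpl49, a mitochondria-specific large subunit protein, had -0.39, -1.10 and 0.92 on wound arrays, against 0.23, 0.19 and 1.75 on skin arrays. All wound arrays lay below the skin arrays of their design, and wound array 2 was the lowest. The log2 difference was -0.91 (SE 0.22, 95% interval -1.43 to -0.39, 0.53-fold, adjusted p = 0.020). This call rests on 1 probe: the other detected Mrpl49 probe gave differences of 0.05 on design 026655 and 0.21 on design 028005, where the brighter probe gave -0.96 and -0.83. With all probes of a gene averaged the difference was -0.40, in the authors' deposited table it was -0.46, and neither passed the threshold.

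Mrpl35, the homologue of bacterial protein L35 of the large subunit, had -2.89, -3.0 and -1.87 on wound arrays, against -2.26, -2.40 and -1.39 on skin arrays. The 3 pairs moved by nearly the same amount, and no wound array reached the skin arrays of its design. The log2 difference was -0.57 (SE 0.14, 95% interval -0.92 to -0.22, 0.67-fold, adjusted p = 0.025). After the normexp background correction the difference was -0.34 and not past the threshold.

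Mrps31, a mitochondria-specific small subunit protein, had -0.02, -0.08 and 0.94 on wound arrays, against 0.46, 0.29 and 1.62 on skin arrays. The groups did not overlap on either design. The log2 difference was -0.51 (SE 0.15, 95% interval -0.87 to -0.15, 0.70-fold, adjusted p = 0.042).

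**Figure D3:**
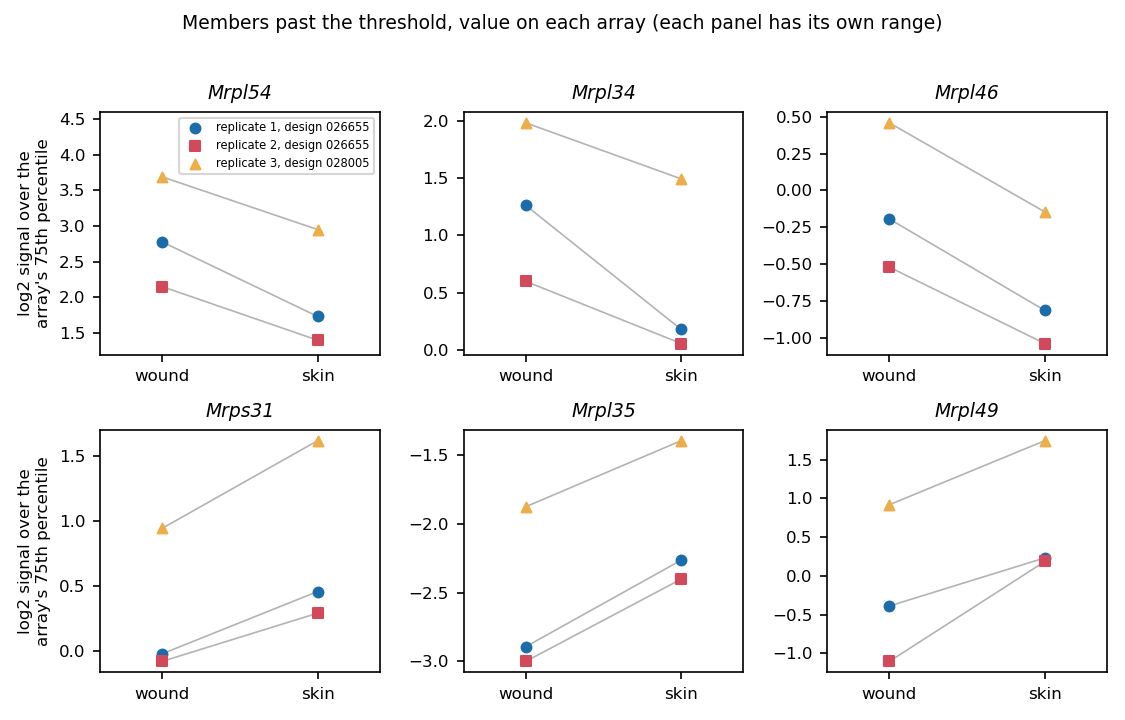
Log2 signal over the array's 75th percentile (y axis, own range in each panel) of the 6 members past the threshold on each wound array (left) and skin array (right), with lines joining arrays of the same replicate number. Mrpl54, Mrpl34 and Mrpl46 lie higher on the wound arrays and Mrps31, Mrpl35 and Mrpl49 lower, and design 028005 (triangles) gives higher values in both groups.

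Of the small subunit, 25 members were measured, with 0 higher, 1 lower and a median log2 difference of 0.18, and 19 of them lay above 0. Mrps12, whose protein lies at the decoding centre, had a difference of 0.29 (SE 0.19, adjusted p = 0.28). The largest positive difference in the small subunit was that of Mrps16, a homologue of a bacterial protein whose human gene is mutated in oxidative phosphorylation deficiency. Mrps16 had 3.67, 3.2 and 4.6 on wound arrays, against 2.82, 2.59 and 4.20 on skin arrays, and at 0.62 (SE 0.19, adjusted p = 0.051) it did not pass. Among the alternatives, it passed after normexp and with genes limited to those well above background on all 6 arrays. Mrps22 and Mrps34, also linked to that deficiency in human, had differences of -0.04 and 0.18. Mrps27, a pentatricopeptide repeat protein, had -0.15 (adjusted p = 0.51). Mrps35 had -0.23 (adjusted p = 0.38), and Mrps6, Mrps14 and Mrps15, homologues of bacterial proteins, had 0.20, 0.23 and 0.26.

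The proteins of the Mrps18 family, 3 copies related to bacterial S18, gave different values. Mrps18b had 2.48, 1.83 and 3.54 on wound arrays, against 1.56, 1.37 and 3.17 on skin arrays, a difference of 0.58 (SE 0.22, adjusted p = 0.086). Mrps18c had 0.30 (adjusted p = 0.28) and lay above 0 on design 026655 only. Mrps18a, which sits in the large subunit despite its name, had -0.15 (adjusted p = 0.62). The differences between these genes were not tested.

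The large subunit had 51 members, Mrps30 and Mrps18a among them, with 3 higher, 2 lower and a median of 0.28, and 42 lay above 0. The stalk proteins Mrpl10, Mrpl11 and Mrpl12, which recruit translation factors, had differences of 0.26, 0.35 and 0.25, with 0 called. A partial list of 7 proteins around the peptide exit tunnel, without Mrpl47, had a median of 0.24 and 0 calls. Its values ran from -0.15 (Mrpl24) to 0.44 (Mrpl17). Mrpl45, which lies at the tunnel exit next to the inner membrane, had 0.15 (adjusted p = 0.51) and Mrpl44, with a fold of the ribonuclease III family, had 0.37 (adjusted p = 0.18). A partial list of 6 proteins of the central protuberance, without Mrpl58, had a median of 0.16, and Mrpl46 alone among them was called.

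Mrpl58, a peptidyl-tRNA hydrolase that releases stalled mitochondrial ribosomes and is also a subunit, had 2.77, 2.29 and 3.59 on wound arrays, against 2.14, 1.77 and 3.44 on skin arrays, a difference of 0.44 (SE 0.21, adjusted p = 0.16). Mrpl3, at the core of the large subunit, had 0.19 (adjusted p = 0.43), and Mrpl18, a homologue of bacterial L18, had 0.16 (adjusted p = 0.59). Mrps30 had 0.28 (adjusted p = 0.23). Mrps36, now known as a component of the 2-oxoglutarate dehydrogenase complex rather than of the ribosome, had 0.52 (SE 0.22, adjusted p = 0.11), and the difference was 0.24 with probes averaged, 0.34 after normexp and 0.18 in the authors' deposited table. By the origin classes used here, the 44 members classed with bacterial homologues had 1 higher, 1 lower and a median of 0.25. The 30 members classed as mitochondria-specific had 2 higher, 2 lower and a median of 0.24. The latter class held Mrpl47 (0.36), although its protein is a homologue of bacterial L29. The difference between subunits or origins was not tested.

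Probes and designs did not always give the same direction. Besides Mrpl49, detected probes of Mrpl41, Mrpl47, Mrps2, Mrps36 and Mrps7 lay on opposite sides of 0 with a gap over 0.5 on at least 1 design. Mrpl41 was the widest, with 0.48 from the probe used and -0.69 from the other on design 026655. The 2 designs gave opposite signs for 11 members, namely Mrpl27, Mrpl36, Mrpl38, Mrpl41, Mrpl55, Mrps18c, Mrps22, Mrps28, Mrps33, Mrps34 and Mrps5, none of them called. Mrps5 had -0.21 (adjusted p = 0.43), Mrps2 had 0.32 (adjusted p = 0.24) and Mrps7 had 0.27 (adjusted p = 0.33). Pseudogenes are listed for Mrpl23, Mrpl27, Mrpl48 and Mrps36, whose probes could also bind their transcripts.

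Several members start head to head with a neighbouring gene. With starts at most 1000 bases apart on opposite strands, 24 of the 68 members with a window (35.3%) had such a neighbour, against 1483 of 17492 protein-coding genes (8.48%). The 24 neighbours, with the members Mrpl46 and Mrps11 among them, had a median log2 difference of 0.06, against 0.04 over all genes. Of the 24 neighbours 2 were higher and 1 lower, where 18.5% of all genes were higher and 15.6% lower. Mrpl46 and Mrps11 start 42 bases apart, and Mrps11 had -0.08, -0.73 and 1.05 on wound arrays, against -0.56, -0.70 and 0.68 on skin arrays (difference 0.27, adjusted p = 0.35). Fau, a cytosolic ribosomal protein gene that starts 192 bases from Mrpl49, had a difference of -0.20 (adjusted p = 0.48). Sars2, the mitochondrial seryl-tRNA synthetase gene 147 bases from Mrps12, had 0.36 (adjusted p = 0.11). Past the threshold were Ncapd2, a condensin gene beside Mrpl51, at 0.53 (adjusted p = 0.029), and Pnpla7, a lysophospholipase gene 935 bases from Mrpl41, at -1.37 (adjusted p = 0.0015), along with Mrpl46 itself. These neighbours were named after their values were seen.

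Other genes of mitochondrial translation were compared through lists, each described by its counts beside the 18.5% higher and 15.6% lower over all genes. The 5 ribosomal proteins without an Mrp symbol had 0 calls, 1 under normexp, and a median of 0.17, which was -0.004 with probes averaged, -0.04 on design 028005 and -0.06 with the values the authors deposited. Among them Dap3, a small subunit GTP-binding protein, had -0.003 (adjusted p = 0.99). Of 26 genes of ribosome assembly and RNA modification, Ddx28, a helicase of large subunit assembly, was higher in wound cells (0.54, SE 0.16, adjusted p = 0.044). It did not pass after normexp (0.35), with the percentile from detected probes (0.44), after quantile normalization (0.58) or in the authors' table (0.48). Mettl17 and Mettl15, which act in small subunit assembly, fell (-0.57, adjusted p = 0.036, and -0.68, adjusted p = 0.023), Mettl17 not passing after normexp (-0.40) or quantile normalization (-0.53). The list had a median of -0.08, and its lower calls numbered 1 to 5 under these scalings. Of 16 translation factors, 1 passed: Slirp, which stabilises mitochondrial mRNAs with Lrpprc, was higher (0.61, SE 0.18, adjusted p = 0.046). Slirp did not pass with the percentile from detected probes (0.51), after quantile normalization (0.48) or in the authors' table (0.55), and the list's higher and lower calls were then 0 and 1, 0 and 0, and 0 and 2. The factors had a median of -0.06, which became 0.004 without wound replicate 2. Lrpprc itself had -0.02 (adjusted p = 0.91) and the elongation factor gene Tufm 0.10 (adjusted p = 0.67). Of 19 mitochondrial aminoacyl-tRNA synthetase and amidotransferase genes, 0 rose and 3 fell, with a median of -0.08. These were Pars2 (-0.90, adjusted p = 0.009), Gatc (-0.85, adjusted p = 0.0084) and Lars2 (-0.50, adjusted p = 0.034). After normexp they were -0.54, -0.41 and -0.39, and Gatc and Lars2 did not pass.

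Of 16 regulators of mitochondrial genes 2 were higher and 2 lower (25%, against 34.1% of all genes), with a median of -0.24. The higher and lower calls were 1 and 1 after normexp and 2 and 2 in the authors' table. With the percentile from detected probes or after quantile normalization they were 2 and 3. Ppargc1a, a coactivator of mitochondrial biogenesis, had -3.44, -3.55 and -2.33 on wound arrays, against -4.40, -5.31 and -3.18 on skin arrays (difference 1.19, SE 0.27, adjusted p = 0.017). Esrra, a nuclear receptor that works with it, had 1.91, 1.76 and 3.05 on wound arrays, against 0.76, 0.46 and 2.10 on skin arrays (difference 1.13, SE 0.16, adjusted p = 0.0031). Both lay higher on every wound array than on the skin arrays of its design. Ppargc1b, a related coactivator, was lower at -1.36 (SE 0.20, adjusted p = 0.0030), and its probe was well above background on 1 of the 3 wound arrays and on all skin arrays. After normexp, Ppargc1a was 0.41 and Ppargc1b -0.33, neither past the threshold. Mterf2, a mitochondrial transcription factor family gene, was lower at -1.07 (adjusted p = 0.00569). Not past the threshold were Nrf1 (-0.51, adjusted p = 0.063), Gabpa (-0.30, adjusted p = 0.22), Tfam, which packages mitochondrial DNA (-0.24, adjusted p = 0.28), Polrmt, the mitochondrial RNA polymerase gene (-0.33, adjusted p = 0.12), and Myc (0.04, adjusted p = 0.86).

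The genes most often set beside mitochondrial ribosomes differed in where their medians lay. The 75 nuclear-encoded oxidative phosphorylation subunits had 7 higher and 0 lower, 69 above 0 and a median of 0.34. The largest of these increases were in Uqcrq of complex III (0.81, adjusted p = 0.024), Ndufa3 of complex I (0.76, adjusted p = 0.047) and Cox6a1 of complex IV (0.70, adjusted p = 0.044). The 7 calls became 11 after normexp, 3 after quantile normalization, 2 in the authors' deposited table and 1 with the percentile from detected probes, and 0 without wound replicate 1, skin replicate 1 or skin replicate 2. Leaving out replicate 3 of either group gave 4. Ndufa3 was 0.19 with probes averaged and 0.13 in the authors' table, and neither value passed. The 18 markers of mitochondrial mass had 4 higher and 0 lower and a median of 0.31, led by Slc25a4, the ADP/ATP carrier (0.82, adjusted p = 0.017), Timm23 of the import channel (0.69, adjusted p = 0.025) and Cs, citrate synthase (0.67, adjusted p = 0.025). These 4 calls became 2 in the authors' table, 6 without wound replicate 2, 1 without wound replicate 1 or replicate 3 of either group, and 0 without skin replicate 1 or 2. The 82 cytosolic ribosomal proteins had 1 higher, Rpl22l1 (0.58, adjusted p = 0.028), 1 lower, Rpl39l (-1.20, adjusted p = 0.0030), 16 above 0 and a median of -0.12. That median was 0.04 in pair 1, -0.02 on design 026655 and -0.28 on design 028005. On design 026655, 35 of the 82 lay above 0. The list takes in paralogues whose symbols end in l or l1, and both calls were of that kind. Under each scaling run, the medians of the members, oxidative phosphorylation subunits and mass markers stayed above 0 and that of the cytosolic ribosomal proteins below it. The differences between lists were not tested. Fewer cells of a type and less RNA per cell cannot be told apart in these bulk samples.

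**Figure D4:**
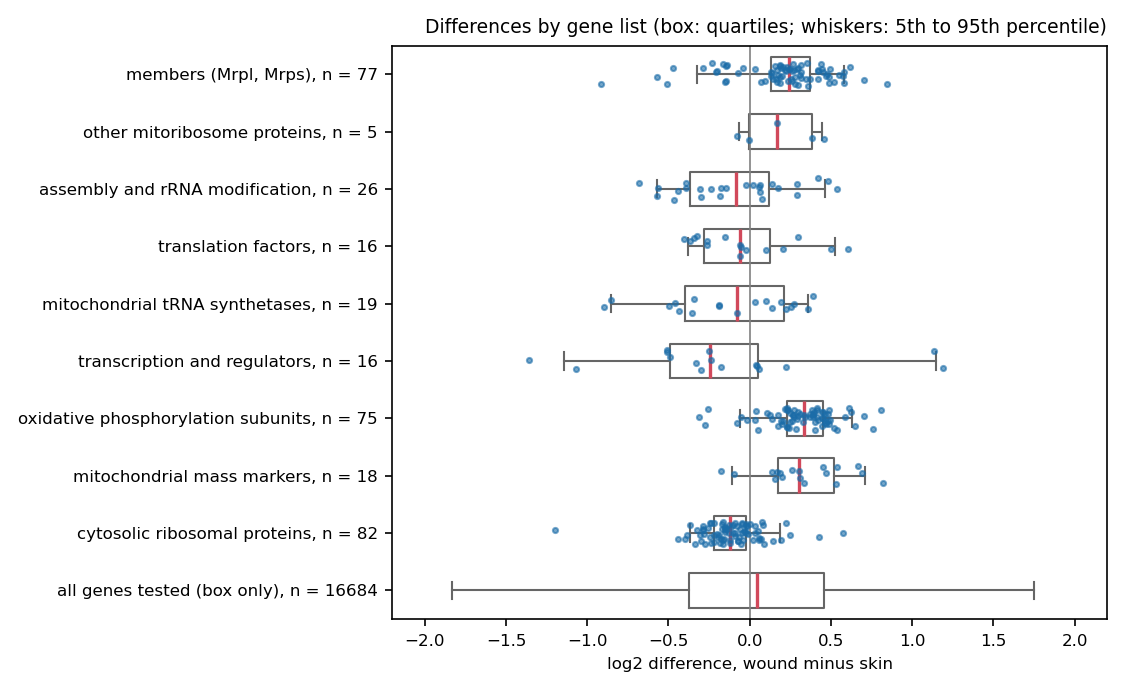
Log2 difference, wound minus skin (x axis), of each gene (points) in the members and in 8 further lists (rows), with boxes for quartiles and median and whiskers from the 5th to the 95th percentile; all 16684 genes tested are shown as a box only. The members sit around 0.24, oxidative phosphorylation subunits around 0.34 and cytosolic ribosomal proteins around -0.12, all within the box of all genes.

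The labels were checked on Acta2, the gene behind the reporter, which had 6.68, 6.36 and 7.90 on wound arrays, against 1.69, 1.88 and 3.25 on skin arrays (26.1-fold, adjusted p = 5.19e-05 in limma). Correlations of arrays across genes were 0.97 to 0.99 within groups and 0.90 to 0.92 between groups. Between 64.4% and 72.6% of spots were well above background on an array, and 0 were saturated. Markers of some other cells differed between the groups. All 6 keratinocyte markers were lower in wound cells, with summed linear signals, in units of the 75th percentile, of 0.562 to 2.07 on wound arrays against 12.01 to 33.04 on skin arrays. All 6 myofibroblast markers and 6 of 8 mural cell markers were higher, with mural sums of 74.8 to 199.2 on wound arrays against 19.7 to 44.7 on skin arrays. Of the 7 fibroblast markers 1 was lower. Of 8 white blood cell markers tested among 10 listed 2 were lower. Their summed signals were 22.96 to 103.7 on wound arrays and 23.42 to 119.2 on skin arrays. Itgam, the brightest of them, had log2 values of 4.2 to 6.5 on wound arrays and 4.2 to 6.6 on skin arrays. Csf1r, the next brightest, had 0.8 to 3.0 on wound arrays and 1.7 to 3.8 on skin arrays. Ptprc, the CD45 gene, had -5.5 to -4.9 on wound arrays and -5.3 to -4.4 on skin arrays. It was well above background on 1 wound array and all 3 skin arrays. Of 6 endothelial markers 2 were higher, and of 4 Schwann cell markers 3 were lower. Of 2 skeletal muscle markers tested among 5 listed, Acta1 was higher (3.68) and Tnnt3 was not called (-0.11). Myh4 and Mylpf were each well above background on 0 wound arrays and 1 skin array. Of the 4 adipocyte markers 1 was tested, Adipoq, and it was not called, while Cidec and the muscle marker Ckm were not well above background on any array. Of 6 proliferation markers 4 were higher. The part of these cells or of proliferation in the members' differences was not tested.

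Relative to all genes, the members' median was 0.20 higher as reported. It remained above the median of all genes under each alternative run, by 0.07 without wound replicate 1 to 0.29 without wound replicate 2.

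**Figure D5:**
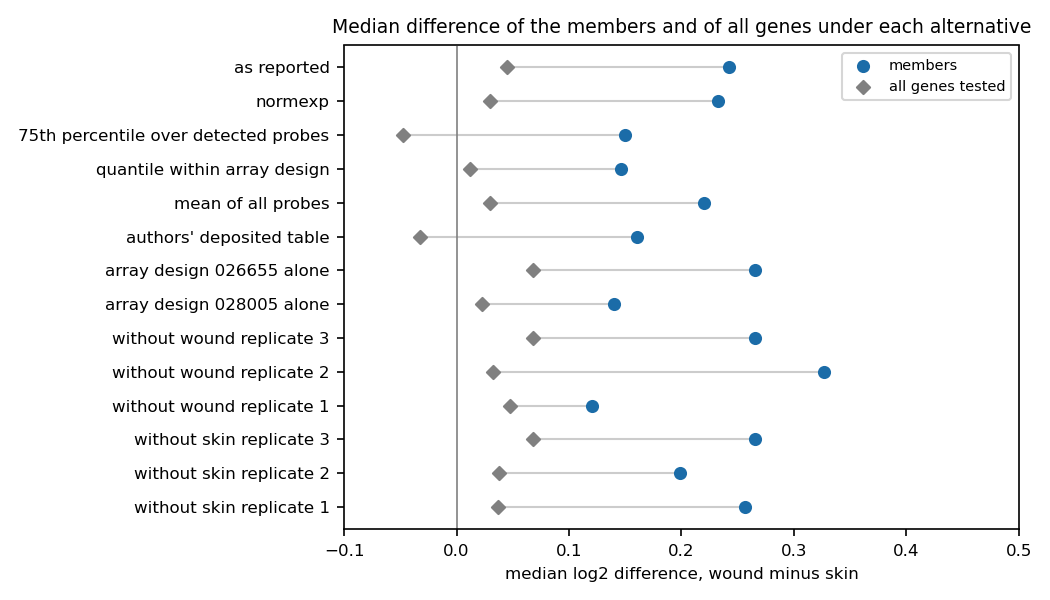
Median log2 difference, wound minus skin (x axis), of the 77 members (circles) and of all genes tested (diamonds) as reported and under alternatives that change the values (rows). The members' median runs from 0.12 without wound replicate 1 to 0.33 without wound replicate 2, and lies right of the median of all genes in every row.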

How the data were processed

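Per the labels, RNA of 6 sorted cell samples was hybridised to Cy3 one-colour Agilent arrays of 2 designs. The deposited scanner files hold spot intensity values (processed signal, background-subtracted) made with Feature Extraction 10.7.3.1, per the file headers, and the authors also deposited a table of log2 values that the series' design text traces to GeneSpring 14.5. That table is centred by gene within each design, so only differences within a design were used. Precision is limited by the 6 arrays. Signals were divided by the array's 75th percentile and log2-transformed, outlier spots left out, spots of a probe averaged, and the brightest probe of a gene kept. The 16684 genes well above background on all 3 arrays of a group were fitted with limma 3.58.1 (R 4.3.3) with array design as a term, 3 residual degrees of freedom, and Benjamini-Hochberg adjustment. The fit was tested on simulated data. Probes were named by the Entrez ids of the deposited table, else by RefSeq accession (GRCm38.p6, names only). Named are called members with 1 sign in all pairs, members with a known role, members whose probes or designs disagree, and for each list up to 3 calls per direction plus 9 fixed regulators and factors. Members and lists were chosen with earlier results of these data known. Alternatives covered background, scaling, probe choice, filter, design, replicate block and leave-one-out; normexp used the median signal and median background, since a mean signal column was not used here. No per-sample column was left unused.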

Additional observations from a re-analysis of the deposited data

How the results depend on the processing

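The number of members past the threshold was 6 as reported, and in limma with Benjamini-Hochberg adjustment it was 0 at adjusted p under 0.01, 3 in the authors' deposited table, 0 with no filter on dim probes (9 at unadjusted p under 0.05), 0 with no array design term (0 unadjusted), 0 on array design 026655 alone (13 unadjusted), and 0 to 4 with 1 array left out. Over all genes the 5687 calls became 3186 at adjusted p under 0.01, 1745 with no array design term, and 3748 to 5017 with 1 array left out. The listed genes outside the members had 24 calls as reported, 6 at adjusted p under 0.01, 8 with no filter, 0 with no array design term (1 unadjusted), 14 on design 026655 alone and 7 to 22 with 1 array left out. More genes tested, fewer arrays or the unmodelled offset between designs enter these alternatives by construction. The replicate numbers are not shown to pair samples (deviations of wound 1 and skin 1 correlated at 0.153 with only 2 numbered pairs), and with the replicate block 7 members and 5590 genes passed, Mrps16 and Mrps36 being called and Mrps31 and Slirp not.

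Signs reversed only among values that did not pass. Dap3 was 0.0348 with normexp and 0.0159 on design 026655. Mrpl38 was -0.018 with normexp, -0.0614 with the percentile over detected probes and -0.0279 in the authors' table. Mrpl41 was -0.234 with probes averaged and -0.293 in the authors' table. Mrps22 was 0.0465 on design 026655. Mrps28 was -0.0234 with the percentile over detected probes and -0.0706 with quantile normalization. Mrps7 was -0.0368 in the authors' table. Myc was -0.0482, -0.1155, -0.015 and -0.1012 under the percentile over detected probes, quantile normalization, the authors' table and design 026655. Tfam was 0.00922 with probes averaged, and Tufm was -0.0331 with quantile normalization and -0.00572 in the authors' table. The cause was not tested. With 1 array left out the difference ran from -0.0347 to 0.0171 for Dap3, from -0.0796 to 0.0552 for Lrpprc, from -0.237 to 0.1203 for Mrpl36, from -0.0945 to 0.157 for Mrpl38, from -0.345 to 0.024 for Mrps18a, from -0.112 to 0.0465 for Mrps22, from -0.0755 to 0.181 for Mrps28 and from -0.1012 to 0.149 for Myc.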
